A study of Rattus norvegicus with 8 samples.

Results

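The miR-26 and miR-101 families are the microRNAs best known for repressing EZH2. Their 4 mature guide strands, rno-miR-26a-5p, rno-miR-26b-5p, rno-miR-101a-3p and rno-miR-101b-3p (the prefix for rat is left off below), were taken by name from the 758 rat miRNAs of an Agilent array, with 2 probes each and 16 spots per miRNA on every array. The tissue was synovium, which lines the joint, from left knees of Sprague-Dawley rats, measured on 8 arrays of 1 colour. Transection of the anterior cruciate ligament (ACLT), used to model osteoarthritis, preceded 4 samples, and exposure of the uncut ligament (sham) the other 4. All samples come from operated knees, and the tissue was taken on the side away from the incision. Sampling was 14 days after surgery by the title, 2 weeks by the protocol and 7 days by the design text, a disagreement that could not be settled. Neither age nor sex is given in the sources used here, and the labels do not say whether each sample is a separate animal, so p-values cover only the variation among these 8 samples, some or all of it possibly technical.

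EZH2 is the catalytic subunit of Polycomb repressive complex PRC2, which places the repressive methyl mark on a lysine of histone H3. miR-26a and miR-101 have been described as repressors of the EZH2 message in human cancer cells, and miR-26a also in mouse myoblasts during differentiation. A miRNA finds its targets mainly through its seed, the stretch from base 2 to base 8. The EZH2 message and protein were not measured on these arrays.

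The mature sequences show why the 4 miRNAs fall into 2 families and how few bases differ between members of a family. They are written 5′ to 3′ from the RefSeq miRNA table (build GRCr8), with the seed in capitals.
miR-26a-5p: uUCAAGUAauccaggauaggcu
miR-26b-5p: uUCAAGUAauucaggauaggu
miR-101a-3p: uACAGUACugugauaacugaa
miR-101b-3p: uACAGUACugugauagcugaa
Both miR-26 strands share the seed UCAAGUA and both miR-101 strands the seed ACAGUAC. Counted from 1 at the 5′ end, miR-26a-5p and miR-26b-5p are identical at 19 of 21 compared positions, with the substitutions C11U and C21U, and miR-26a-5p is 22 bases long against 21. miR-101a-3p and miR-101b-3p are identical at 20 of 21 positions, with the single substitution A16G. How far the probes of one family member also bind the other was not tested, so values within a family are uncertain in that respect.

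In build GRCr8, miR-26a-5p lies at chr8:127633063-127633084 on the plus strand, within the span of Ctdspl, and miR-26b-5p at chr9:83425723-83425743 on the plus strand, within Ctdsp1. Both host genes encode small phosphatases of the C-terminal domain of RNA polymerase II. miR-101a-3p lies at chr5:121081691-121081711 on the minus strand, within an uncharacterised long non-coding RNA gene, and miR-101b-3p at chr1:236273982-236274002 on the plus strand, within Rcl1, which encodes a ribosomal RNA processing protein.

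The arrays differed in brightness within both groups. The 75th percentile of each array, over probes that stood well above background throughout, came to 797, 1097, 353 and 305 for ACLT replicates 1 to 4, against 289, 317, 353 and 1185 for sham replicates 1 to 4. ACLT replicates 1 and 2 and sham replicate 4 were thus the brightest arrays, and they also had the highest signals of the labelling spike-ins, RNAs added before labelling (312 to 476, against 141 to 199 on the other arrays). Main values are log2 signals relative to this percentile. The 3 mesenchymal marker miRNAs listed for the tissue were all detected, with a summed scaled signal of 5.25 to 8.48 after ACLT and 4.61 to 7.20 after sham surgery, and 0 of 7 epithelial markers were detected on any array. Of 8 striated muscle markers 6 were detected, with a summed scaled signal of 0.122 to 16.4 after ACLT and 1.46 to 6.32 after sham surgery.

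None of the 4 miRNAs separated ACLT from sham synovium. In whole tissue, fewer cells of a type and less of a miRNA per cell cannot be told apart. Mean levels of miR-26a-5p, miR-26b-5p and miR-101a-3p were slightly lower after ACLT, at 0.881-fold, 0.921-fold and 0.946-fold of sham, and that of miR-101b-3p was 1.15-fold of sham. miR-101b-3p entered the test only through the ACLT arrays, where it was detected on 4 of 4 against 2 of 4 sham arrays, and it was at the floor on 5 of 8 arrays, so its difference and its share in the counts over the 4 are descriptions. By limma with Benjamini-Hochberg adjustment over the 113 tested miRNAs, 0 of 4 passed an adjusted p of 0.05, as did 0 of all 113 (0%). At an unadjusted p under 0.05 the counts were 0 of 4 and 8 of 113 (7.08%). A negative difference was found for 3 of 4 and for 73 of 113 (64.6%), and the median difference was -0.099 over the 4 and -0.073 over all tested miRNAs. The values of ACLT and sham arrays overlapped for all 4 miRNAs, and they were apart for 0 of 113 tested miRNAs (0%).

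miR-26a-5p was well above background on all 8 arrays. Its log2 levels were 0.42, 0.37, 1.02 and 0.96 on ACLT replicates 1 to 4, against 0.93, 1.16, 1.09 and 0.33 on sham replicates 1 to 4. ACLT replicates 1 and 2 and sham replicate 4 were low and the other 5 arrays high, so the groups overlapped fully. The mean was 0.69 ± 0.35 in ACLT synovium and 0.88 ± 0.38 in sham synovium (± SD, n = 4 each). The log2 difference of -0.18 (SE 0.24) had a 95% interval of -0.75 to 0.39 (limma adjusted p = 0.840), which corresponds to 0.594-fold to 1.31-fold. The 3 arrays with low values are the 3 brightest ones.

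miR-26b-5p, which shares the seed of miR-26a-5p, lay within a narrow band on the ACLT arrays once scaled. Before scaling, its signals on those arrays ran from 101.2 to 376. Its log2 levels were -1.52, -1.54, -1.49 and -1.59 on the ACLT arrays, against -1.72, -1.35, -1.53 and -1.08 on the sham arrays. Sham replicate 1 was the lowest and sham replicate 4 the highest of all 8, with the 4 ACLT arrays between them. The mean was -1.54 ± 0.044 in ACLT synovium and -1.42 ± 0.27 in sham synovium (± SD, n = 4 each). All 4 ACLT arrays were below the sham mean, yet the log2 difference of -0.12 (SE 0.13) had an interval of -0.43 to 0.20 (limma adjusted p = 0.840). Without sham replicate 4 the difference came to -0.0043.

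miR-101a-3p was likewise well above background on every array. Its log2 levels were -3.12, -3.14, -3.44 and -3.73 on the ACLT arrays, against -3.50, -3.25, -3.60 and -2.75 on the sham arrays. Sham replicate 4 was again the highest array and ACLT replicate 4 the lowest. The mean was -3.36 ± 0.29 in ACLT synovium and -3.28 ± 0.38 in sham synovium (± SD, n = 4 each). The log2 difference of -0.081 (SE 0.22, interval -0.61 to 0.45, limma adjusted p = 0.955) turned to 0.095 without sham replicate 4 and to 0.043 without ACLT replicate 4.

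miR-101b-3p was at the limit of detection, and its brightest probe was well above background on 2 of 4 ACLT arrays and 1 of 4 sham arrays. Its unscaled signals were 47.5, 74.998, 15.6 and 12.2 on the ACLT arrays, against 9.90, 12.2, 11.5 and 61.2 on the sham arrays. The lowest signal that counted as well above background was 13.1 to 17.3, depending on the array, and the 95th percentile of the negative control spots was 11.9 to 14.8. ACLT replicates 1 and 2 and sham replicate 4 stood clear of this range, and they are the brightest arrays of the series. The other 5 arrays lay in, just above or below that range. The part that brightness has in these signals was not tested. After scaling, ACLT replicates 1 and 2 were at -4.07 and -3.87 and sham replicate 4 at -4.28, while the other 5 arrays were at the floor of -4.48 used for values too dim to rank.

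The mean of miR-101b-3p with the floor was -4.22 ± 0.30 in ACLT synovium and -4.43 ± 0.10 in sham synovium (± SD, n = 4 each). The log2 difference of 0.20 depends on that floor, being 0.43 with the floor at 0.5 times its value, and nothing is read from its test.

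**Figure D1:**
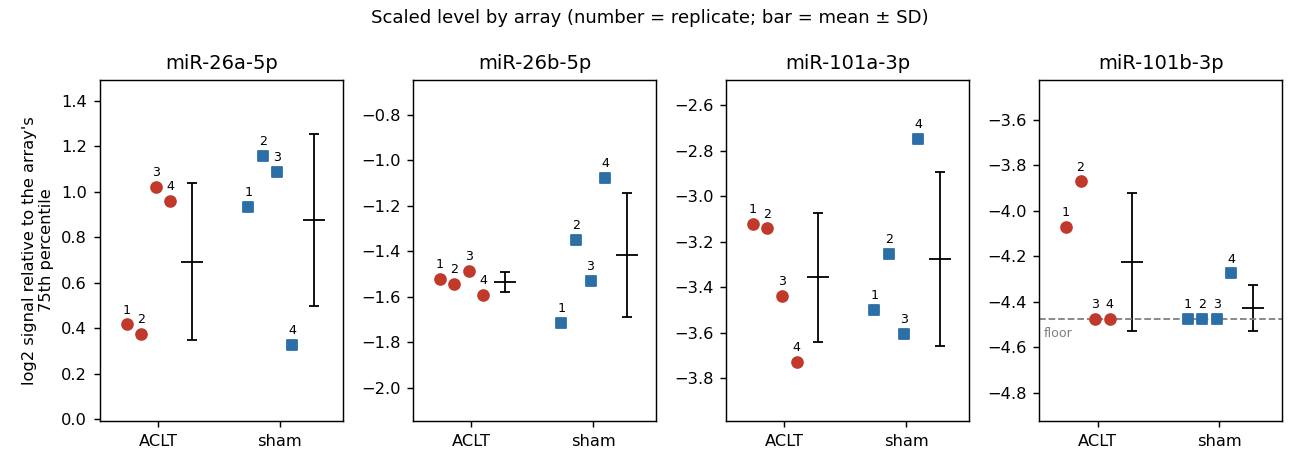
Log2 signal relative to each array's 75th percentile (vertical axis) of the 4 miRNAs on 4 ACLT arrays (circles) and 4 sham arrays (squares), with the replicate number above each point and the mean ± SD beside each group. The groups overlap in every panel, miR-26a-5p is lowest on ACLT replicates 1 and 2 and sham replicate 4, and 5 arrays of miR-101b-3p lie on the floor of -4.48.

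The 4 miRNAs followed the brightness of the arrays to different degrees. Unscaled signals of miR-26a-5p were 1064, 1421, 717 and 594 on the ACLT arrays, against 552, 708, 750.5 and 1486 on the sham arrays, a 2.69-fold range over all 8. Those of miR-26b-5p were 278, 376, 126 and 101.2 on the ACLT arrays, against 88.0, 124, 122 and 562 on the sham arrays, a 6.39-fold range. miR-26a-5p therefore spanned less than the 75th percentile itself, which had a 4.10-fold range, and miR-26b-5p more.

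For miR-101a-3p the unscaled signals were 91.5, 124, 32.6 and 23.1 on the ACLT arrays, against 25.6, 33.3, 29.0 and 176 on the sham arrays, a 7.65-fold range. Of the 78 tested miRNAs above the floor on all arrays, 2 had a smaller unscaled range than miR-26a-5p, while 60 had a smaller one than miR-26b-5p and 68 a smaller one than miR-101a-3p, and the median was 5.18-fold. After scaling the ranges were 1.78-fold, 1.56-fold and 1.97-fold, against a median of 1.69-fold. The part that brightness has in these levels was not tested.

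**Figure D2:**
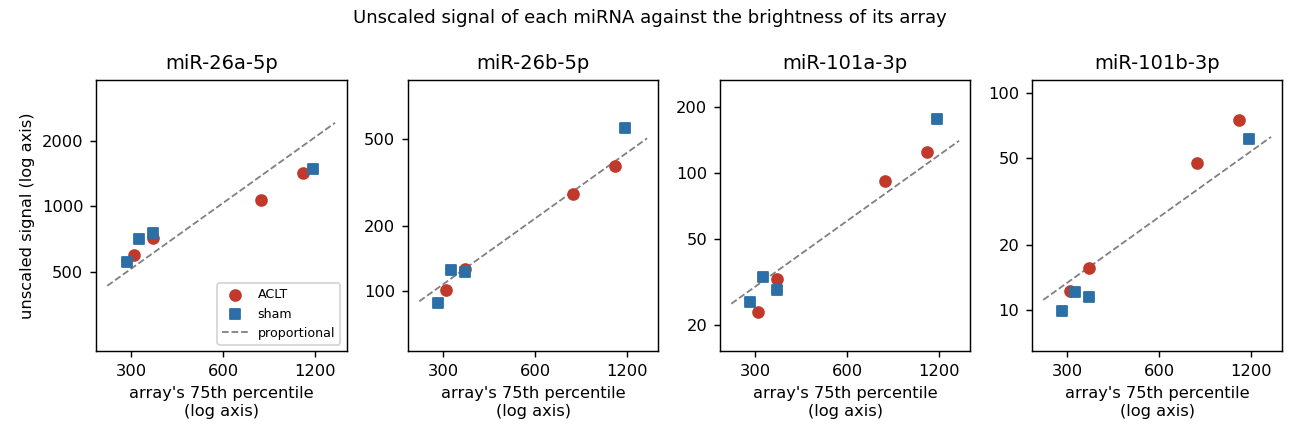
Unscaled signal of each miRNA (vertical, log axis) against its array's 75th percentile (horizontal, log axis) for 4 ACLT arrays (circles) and 4 sham arrays (squares), with a dashed line of constant proportion. miR-26a-5p lies below the line on the 3 brightest arrays, and its range of 2.69-fold is smaller than that of the other 3.

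Both probes of a miRNA gave differences of the same sign where both were tested. The second probe of miR-26a-5p differed by -0.29 (SE 0.33), that of miR-26b-5p by -0.16 (SE 0.15) and that of miR-101a-3p by -0.15 (SE 0.22). Of the 153 probes tested by limma, 0 passed an adjusted p of 0.05 (0%), among them 0 of these 6 probes, whose adjusted p-values were 0.904 to 0.979. At an unadjusted p under 0.05 the counts were 0 of 6 and 10 of 153 (6.54%), and a negative difference was found for 6 of 6 and for 94 of 153 probes (61.4%). The 6 probes are pairs for miR-26a-5p, miR-26b-5p and miR-101a-3p, so their signs are not separate. Neither probe of miR-101b-3p, whose main difference was positive, entered this test. The brighter probe of miR-26a-5p gave 2.01, 1.96, 1.70 and 1.82 times the signal of the other on the ACLT arrays, against 1.61, 1.602, 1.64 and 2.16 times on the sham arrays. The 2 probes were thus not proportional, and the ratio was highest on the 3 brightest arrays, although 0 spots were saturated. For miR-26b-5p the same ratio stayed between 1.20 and 1.30 on all 8 arrays. Spots of the same probe varied by a median coefficient of variation of 4.22% for miR-26a-5p, 5.97% for miR-26b-5p, 4.84% for miR-101a-3p and 13.2% for miR-101b-3p.

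The sign of the difference moved with the scaling for each of the 4 miRNAs. Over 11 ways of scaling or summarising the arrays, the median difference of all tested miRNAs ran from -0.28 to 0.25, and the number of the 113 with a negative difference ran from 18 to 99, so each miRNA is given against that median. Relative to that median miR-26a-5p was lower in all 11, by -0.43 to -0.047, while miR-101b-3p lay at 0.071 to 3.61. The range of miR-101b-3p is that of values at a floor or near background and of an entry to the test through ACLT alone, and its upper end comes from the authors' value table, where undetected miRNAs are listed at 0.1. miR-26b-5p lay at -0.083 to 0.018 and miR-101a-3p at -0.048 to 0.21 relative to the median. These settings share the same 8 arrays and are no separate checks of a sign. Most of them differ only by a single factor per array, which moves all miRNAs above the floor together. Agreement among them on a place relative to the median is therefore largely built in. None of the 4 miRNAs passed the test under any of them (limma adjusted p of 0.615 to 1).

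**Figure D3:**
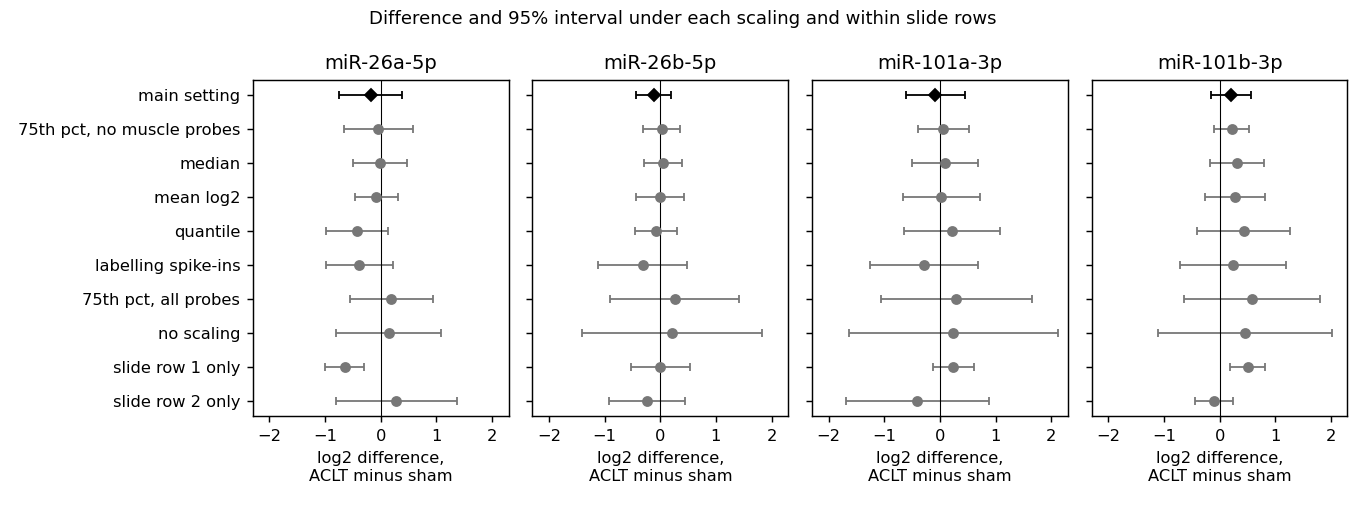
Log2 difference of ACLT minus sham (horizontal axis) with its 95% interval for each miRNA under 8 scalings of the arrays and within each slide row, with the main setting as a black diamond. The intervals include 0 under every scaling. In row 1 alone those of miR-26a-5p (-1.004 to -0.30) and miR-101b-3p (0.19 to 0.82) do not. The row 1 value of miR-101b-3p rests on 2 sham arrays at the floor, and nothing is read from it.

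The slide has 2 rows of arrays. Row 1 holds ACLT and sham replicates 1 and 2, and row 2 holds replicates 3 and 4. In row 1 alone miR-26a-5p differed by -0.65 (limma unadjusted p = 0.0107, adjusted p = 0.101), and within row 2 by 0.28 (adjusted p = 0.839). For miR-101b-3p both sham arrays of row 1 and all but sham replicate 4 in row 2 were at the floor, so no test within a row is read for it. In row 1 limma called 8 of 113 miRNAs (7.08%), with 25 of 113 at an unadjusted p under 0.05 (22.1%), and of the other 3 members 0 were called and 1, miR-26a-5p, was at an unadjusted p under 0.05. In row 2 it called 0 of 113 (0%), with 10 of 113 at an unadjusted p under 0.05 (8.85%) and 0 of these 3 among them. The brightest arrays of row 1 are its ACLT arrays, and the brightest of row 2 is a sham array. Within the rows miR-26b-5p differed by 3.2e-05 and -0.24, and miR-101a-3p by 0.24 and -0.40. Whether a difference itself varied between the rows was not tested.

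Ratios of 2 miRNAs on the same array do not depend on the scaling, and they were compared as a description, with no test. The size of a ratio also reflects the probes and is no ratio of amounts. miR-26a-5p over miR-26b-5p was 3.83, 3.78, 5.70 and 5.86 on the ACLT arrays, against 6.27, 5.70, 6.14 and 2.64 on the sham arrays. The log2 ratio averaged 2.23 ± 0.35 in ACLT synovium and 2.29 ± 0.60 in sham synovium (± SD, n = 4 each), and the groups overlapped. The 3 brightest arrays had the lowest ratios, so the signals of the 2 strands did not keep step from array to array. The ratio of the 2 miR-26a-5p probes was highest on the same arrays. The part that brightness, the probes or binding of the other strand has in this was not tested.

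The ratio of the 2 miR-101 strands was lower on every ACLT array than on any sham array. miR-101b-3p entered the test only through its detection on the ACLT arrays, and a lower ratio after ACLT leans the same way. The separation is therefore a description and no support for a difference. miR-101a-3p over miR-101b-3p was 1.93, 1.66, 2.09 and 1.89 on the ACLT arrays, against 2.58, 2.74, 2.53 and 2.88 on the sham arrays. The log2 ratio averaged 0.91 ± 0.14 in ACLT synovium and 1.42 ± 0.085 in sham synovium (± SD, n = 4 each), a difference of -0.51. On the 3 arrays where miR-101b-3p was well above background, the ratio was 1.93 and 1.66 after ACLT and 2.88 after sham surgery. On the other 5 it rests on miR-101b-3p signals of 9.90 to 15.6, close to the negative control spots, which limits the weight of the ratio there.

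miR-26b-5p over miR-101b-3p was likewise apart, at 5.01 to 8.28 on the ACLT arrays, against 8.88 to 10.67 on the sham arrays. The remaining 4 of the 6 ratios between the miRNAs overlapped between the groups. Among all 6328 ratios of 2 tested miRNAs, 148 did not overlap (2.34%). Both ratios named here share the dim miR-101b-3p and its entry to the test through ACLT alone. A setting chosen after seeing the data used the second probe of miR-101b-3p and the main probe of miR-101a-3p. There the ranges overlapped, at 3.04 to 4.48 after ACLT and 4.35 to 7.51 after sham surgery. On the 5 dimmer arrays that second probe of miR-101b-3p gave signals of 3.86 to 7.27, below the 95th percentile of the negative control spots. Its ratios there are ratios over background. Of 13 settings beside the main one, all chosen after seeing the data, the groups stayed apart in 12. Many of them leave out an array, which cannot make separate groups overlap, so the count is no support.

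**Figure D4:**
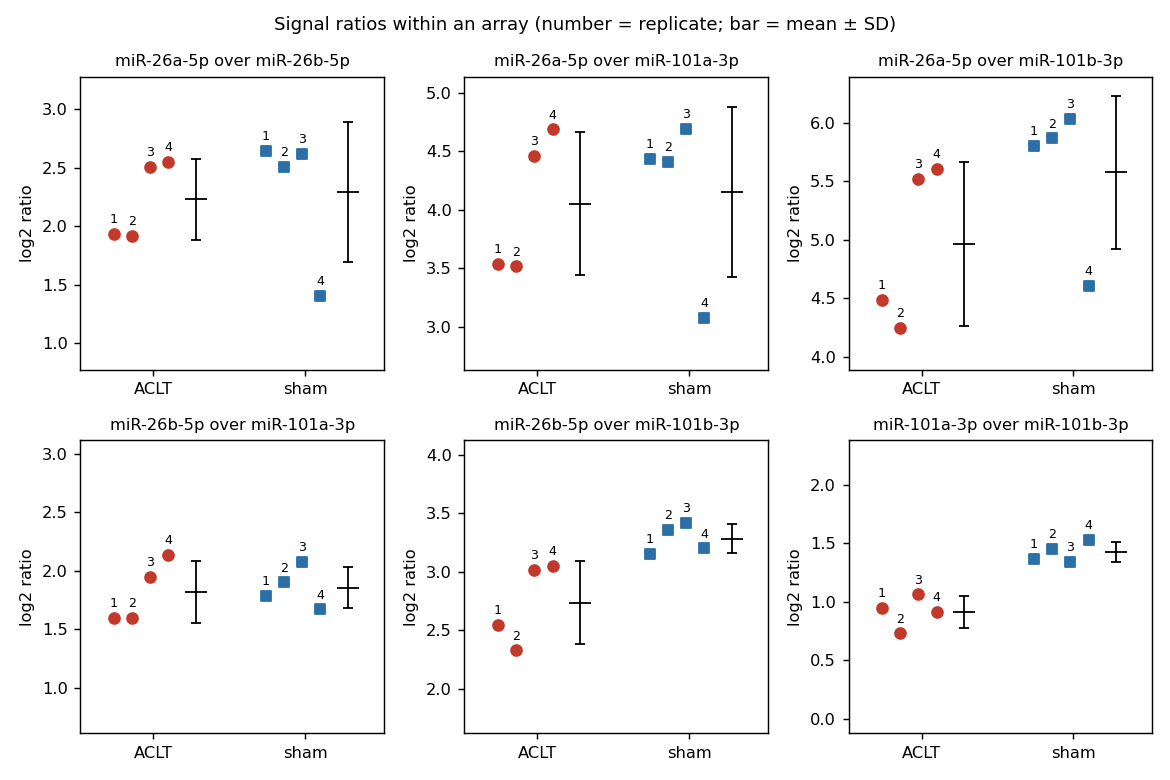
Log2 ratio of the unscaled signals of 2 miRNAs on the same array (vertical axis) for 4 ACLT arrays (circles) and 4 sham arrays (squares), with the replicate number above each point and the mean ± SD beside each group. The ACLT and sham points do not overlap for miR-101a-3p over miR-101b-3p and for miR-26b-5p over miR-101b-3p, and they overlap in the other 4 panels. miR-101b-3p, near background on most arrays, entered the test through ACLT alone.

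The miRNAs whose profile over the 8 arrays was most like that of each member differed between the members. These likenesses are Pearson correlations of scaled log2 values among 75 other miRNAs above the floor on all arrays. They are given as a description, since all points share the 8 arrays, their scaling and their brightness. Nearest to miR-26a-5p were miR-30b-5p of the miR-30 family (r = 0.97, Spearman's rho 0.90), the imprinted miR-494-3p (r = 0.97, rho 0.88) and miR-1224 (r = 0.95, rho 0.88). On the 3 brightest arrays miR-30b-5p was at -4.18 to -4.08, and on the other 5 at -3.43 to -2.83, the same split as for miR-26a-5p.

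Nearest to miR-101a-3p were miR-15b-5p of the miR-15/16 family, which represses cell cycle genes (r = 0.90, rho 0.81), let-7f-5p (r = 0.88, rho 0.88) and miR-10b-5p, encoded in a Hox cluster (r = 0.86, rho 0.86). For miR-101b-3p, at the floor on 5 arrays, they were miR-140-5p of cartilage (r = 0.82, rho 0.87), miR-10b-5p (r = 0.81, rho 0.87) and miR-21-5p (r = 0.79, rho 0.79). Outside the 4 members, the highest correlations of miR-26b-5p were with miR-142-3p of leukocytes (r = 0.77, rho 0.55), miR-10a-5p (r = 0.76, rho 0.50) and miR-19b-3p (r = 0.68, rho 0.48). Between the members, r was -0.355 for the miR-26 pair and 0.58 for the miR-101 pair, while miR-26a-5p had r = -0.77 with miR-101a-3p and -0.851 with miR-101b-3p. miR-26b-5p had r = 0.765 with miR-101a-3p (rho 0.643) and 0.070 with miR-101b-3p.

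A single further rat miRNA on the array shares part of a seed with a member by the RefSeq table, which holds 685 of the 758 names. It is miR-144-3p, an erythroid miRNA that has bases 2 to 7 in common with miR-101 and is shown for that reason.
miR-144-3p: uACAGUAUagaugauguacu
It was detected on all 8 arrays, at a log2 level of -3.21 ± 0.48 in ACLT synovium and -2.53 ± 0.65 in sham synovium (± SD, n = 4 each). The difference of -0.69 (SE 0.38) did not pass (limma adjusted p = 0.732). The 3 erythroid markers on the array, miR-144-3p among them, had a summed scaled signal of 0.521 to 0.947 after ACLT and 0.488 to 1.47 after sham surgery, and their part in the miR-144-3p level was not tested.

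Of the other miRNAs reported to target EZH2 in human or mouse cells, miR-144-3p among them, none passed the test. All 10 listed were on the array and 7 were detected and tested, of which 2 had a positive and 5 a negative difference. The median was -0.014, against -0.073 over all tested miRNAs, and 0 of 7 passed by limma, as did 0 of 113 (0%). miR-214-3p, which represses Ezh2 in mouse muscle cells, was at 0.54 ± 0.24 in ACLT synovium and 0.45 ± 0.36 in sham synovium (± SD, n = 4 each). The let-7 members and miR-98-5p, which share the let-7 seed, had differences of -0.10 to 0.031, and miR-144-3p, at -0.69, had the largest of the 7. miR-138-5p, miR-124-3p and miR-217-5p were detected on 0 arrays.

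The opposite arms of the 4 precursors were not measurable in either group. miR-26a-3p, miR-26b-3p, miR-101a-5p and miR-101b-5p have 2, 4, 4 and 2 probes, and none was called detected or had a probe well above background on any of the 8 arrays. Their highest signals over all probes and arrays were 4.31, 5.22, 1.23 and -1.63, below the lowest signal that counted as well above background on any array, 13.1. No fold between the groups is therefore given for them.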

How the data were processed

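Total RNA of 8 synovial samples was measured on 1-colour (Cy3) Agilent rat miRNA arrays. Per the labels, RNA was isolated with RNAiso plus and 50 ng was labelled with the Low Input Quick Amp product, an mRNA labelling kit; whether these miRNA arrays were labelled with it could not be settled. Per the file headers, the scans went through Agilent Feature Extraction 10.7.3.1 (array design 070154, grid build rn4), and the processed signal used here is an intensity, background-subtracted with no scaling from array to array. Values in the table the authors deposited are that software's summary per miRNA (largest difference 0). Groups and replicate numbers come from the titles. 4 arrays per group limit the precision.

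Control spots and outlier spots (9.01% to 11.1% per array) were dropped and the remaining spots of a probe averaged. A probe was well above background where at least 0.5 of its spots were. Scaling was by the array's own 75th percentile among 136 probes that were well above background throughout. Values under 0.0449 were set to that floor, the median over arrays of the lowest scaled signal well above background, and log2 was taken. The brightest of a miRNA's probes over all 8 arrays stands for it. Tested were the 113 miRNAs that had a detection call on every array of 1 or both groups, with limma 3.58.1 (lmFit, eBayes) in R 4.3.3 and Benjamini-Hochberg adjustment, on all 8 arrays without covariates. Only the limma fit was tested on simulated data, with changes larger than those of the members. That trial did not cover spot filtering, scaling, the floor or the choice of probe. Figures were drawn with matplotlib 3.10.9.

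The members and lists were chosen with earlier results of these data known. Named miRNAs are the members, their opposite arms, miRNAs sharing a seed, a list of other miRNAs reported to target EZH2, and the 3 miRNAs most correlated with each member. Alternatives covered scaling, background correction (normexp on median signals, offset 50), probe summary, filters, floor, variance model, slide row, replicate block and leaving out each array. Same-numbered arrays of the groups deviated together in 2 of 4 pairs only (correlations of -0.41 to 0.80), so the numbers were not taken to pair samples.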

Additional observations from a re-analysis of the deposited data

Results flagged for a closer look

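For 64 sets of 4 values, the levels and ratios named here by group, a single distant array was looked for, and 6 were found, where chance gives about 3.2 (1 in 20). The value in each case is the gap to the nearest array as a share of the group's range, set against Dixon's 95% critical value for 4 samples. For miR-101b-3p the gap was 1 on sham replicate 4 (-4.28), since the other 3 sham arrays were at the floor. Sham replicate 4, the brightest array, also stood apart in the log2 ratios of miR-26a-5p over miR-26b-5p (gap 0.889, at 1.40 against 2.51 to 2.65) and of miR-26a-5p over miR-101b-3p (gap 0.837, at 4.60 against 5.80 to 6.03). It stood apart too in the log2 ratio of the 2 miR-26a-5p probes (gap 0.914, at 1.11 against 0.68 to 0.72) and in the level of miR-1224 (gap 0.841, at -3.63 against -0.54 to 0.043). let-7e-5p was low on sham replicate 3 (gap 0.865, at -0.66 against -0.11 to -0.020).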

How the results depend on the processing

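No member passed an adjusted p of 0.05 under any of its alternatives by limma, with adjusted p-values of 0.101 to 1 for miR-26a-5p, 0.456 to 1 for miR-26b-5p, 0.351 to 1 for miR-101a-3p and 0.120 to 1 for miR-101b-3p, whose tests rest on values at the floor. The sign turned under 4 of 32, 6 of 32, 10 of 32 and 2 of 30 alternatives. Among these, the filters, variance models and blocks refit the same values in a balanced design and cannot move an estimate. The floor did not move those of miR-26a-5p and miR-26b-5p either. Such alternatives are no checks of the sign, and they make it look steadier in these counts than it is. With the 75th percentile over all probes the differences of miR-26a-5p, miR-26b-5p and miR-101a-3p were 0.19, 0.26 and 0.30, with no scaling 0.14, 0.21 and 0.24, and in the values as the authors deposited them 0.10, 0.19 and 0.21. With the median of probes well above background miR-26b-5p came to 0.052 and miR-101a-3p to 0.089, and after leaving striated muscle probes out of the percentile to 0.025 and 0.062. miR-101a-3p was at 0.21 with quantile normalization and 0.026 with the mean log2. Within slide row 1 miR-26b-5p was at 3.2e-05 and miR-101a-3p at 0.24, and within row 2 miR-26a-5p was at 0.28 and miR-101b-3p at -0.10. miR-101b-3p was at -0.0026 with normexp. The second probes turned sign too: that of miR-26a-5p to 0.091 (all probes) and 0.038 (no scaling), that of miR-26b-5p to 0.22, 0.17 and 0.012 (median), and that of miR-101a-3p to 0.23, 0.17, 0.019 and 0.14 (quantile). The cause of these turns was not tested. Leaving out 1 array gave -0.37 to -0.077 for miR-26a-5p, -0.22 to -0.0043 for miR-26b-5p, -0.19 to 0.095 for miR-101a-3p and 0.086 to 0.29 for miR-101b-3p. miR-101b-3p had no value with the floor at 2 times (all arrays at it) or among miRNAs detected on all 8 arrays.

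Over all miRNAs limma called 0, with 8 in slide row 1 and 1 in the authors' value table. The last is miR-466d, named after its values were seen and listed there at 0.1 on all 4 ACLT arrays. Under the replicate block the estimates stay as they are, at -0.18, -0.12, -0.081 and 0.20, with 0 calls and 3 of 8 arrays correlating best with their own number. Signal over background limits miR-101b-3p. For miR-26a-5p the 95% interval of the main setting leaves room for 0.594-fold to 1.31-fold. Its intervals reach lower than this with labelling spike-in scaling and within slide row 1. They reach higher with no scaling and within slide row 2, so the room is wider in both directions.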
